A study of Oryza sativa with 4 samples.

Results

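The comparison set the chilling-tolerant rice line DC90 against its chilling-sensitive recurrent parent 9311, also called YD6, with both sampled after 36 h of chilling. It covered the 22603 identifiers beginning with BGIOSGA that had an FPKM of at least 1 in either line at that time, out of 40745 such identifiers and 88509 identifiers in all. FPKM is the number of sequenced fragments per length of the gene and per size of the library, so levels of different genes can be compared on it. Members were chosen by level alone and not by the difference between lines.

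Seedlings of both lines were at the 3-leaf stage, and the whole plant was taken. The groups were DC90 at 36 h, 9311 at 36 h, DC90 at 0 h (before chilling) and 9311 at 0 h. DC90 is a chromosome substitution line, in which segments from a donor replace those of the recurrent parent. Neither the donor nor the replaced segments are named in the labels. RNA of 3 replicates was mixed in equal amounts, so each group is 1 library, and no difference below has a replicate check or a test. "Higher" and "lower" therefore describe these libraries. In whole seedlings, fewer cells of a type and less RNA per cell cannot be told apart. The libraries held 10580163 reads for DC90 at 36 h, 10901043 for 9311 at 36 h, 11709642 for DC90 at 0 h and 11800685 for 9311 at 0 h, as recovered from the steps of the FPKM values.

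Rice is a plant of warm climates, and cool temperatures at the seedling stage slow its photosynthesis, stiffen its membranes and can bleach or kill young leaves. Rice seedlings respond through transcription factors of the CBF/DREB1 family, calcium signals and hormones such as abscisic acid, and indica varieties are as a rule more sensitive to chilling than japonica ones. A substitution line shares most of its genome with its recurrent parent, so a comparison of both asks which transcripts differ beside a mostly common background. The sources used here pair none of these identifiers with gene names, so the members of these pathways and the markers of plant tissues could not be picked out, and no sequences are shown.

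After 36 h of chilling, most transcripts were at similar levels in both lines, and those that stood apart were more often lower in DC90. Of the 22603 members, 18798, or 83.2%, lay within 1.5-fold of equality. At least 2-fold higher in DC90 were 412 members, or 1.82% of all, and at least 2-fold lower were 817, or 3.61%. Together they made up 5.44%. These sizes are on the log2((FPKM + 1)/(FPKM + 1)) scale, DC90 over 9311, which understates the difference of low values. The median log2 ratio was 0.06, and the SD over members was 0.54. The distribution was uneven: its 1st percentile was -1.57 and its 99th was 1.21, although 58.0% of the members lay above 0. The last share depends on scaling, since it was 48.5% after median-of-ratios scaling, when the median became -0.01. In the same members before chilling, DC90 was past 2-fold upward in 1.33% and downward in 1.49%, together 2.82%, with an SD of 0.45, a 1st percentile of -1.14 and a 99th of 1.12. Over the 22919 identifiers measured at 0 h by the same level rule, the shares were 1.59% higher and 1.87% lower, together 3.46%.

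**Figure D1:**
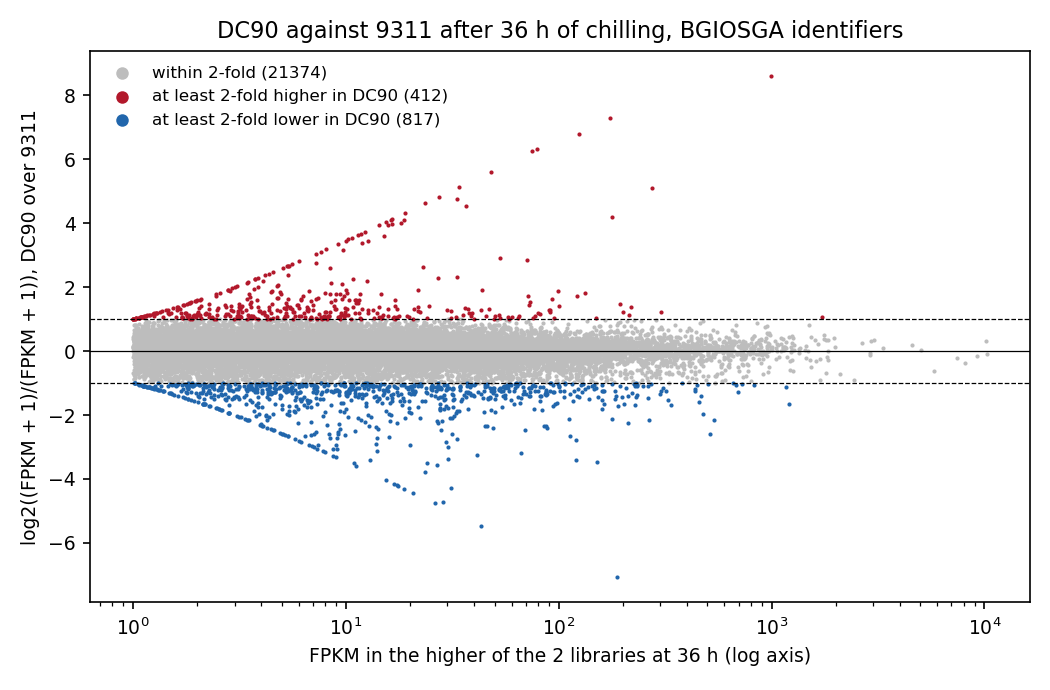
Each point is 1 of the 22603 members, with its FPKM in the higher of the 2 libraries at 36 h on a log axis and its log2 ratio of DC90 over 9311 on the vertical axis; dashed lines mark 2-fold. Of the 412 higher members 15 lie at 100 FPKM or more, and of the 817 lower members 87 do; the curved edges are members listed at 0 in one line.

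Reads behind these values differed widely. A median member had 172 reads in its deeper library at 36 h, a higher member 36 and a lower member 80. Under 20 reads stood behind 32.0% of the higher and 22.4% of the lower members, against 10.6% of all. Among the 14019 members with at least 100 reads, 108 were higher, or 0.77%, and 370 lower, or 2.64%, together 3.41%. The 95% counting interval of the ratio, which covers counting error only, excluded equality for 351 of the 412 higher and 743 of the 817 lower members, against 39.4% of all members. It lay wholly beyond 2-fold for 172 higher and 384 lower ones, and over all 22603 members for 174 upward and 388 downward. The higher and lower members were chosen by the ratio of these same libraries, so these interval counts are not separate support. Just short of the size rule, with a log2 ratio of 0.9 to 1.0 in size, were 128 higher and 194 lower members, and just past it, at 1.0 to 1.1, 115 higher and 188 lower. At the level limit, 287 members had 1.0 to 1.1 FPKM in the higher library, of which 17 were higher and 7 lower, while 290 identifiers at 0.9 to 1.0 FPKM stayed out and could not have reached 2-fold.

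Nearly all of the large differences at 36 h were also past 2-fold before chilling, and most of the moderate ones were not. The 0 h libraries share no library with the 36 h comparison, so they are a second reading of the line difference in separate libraries. A difference between the lines in how reads were aligned would recur at both times, and it was not tested. All 36 members at least 8-fold higher in DC90 at 36 h, 0.159% of the members, were also at least 2-fold higher at 0 h. Of the 32 members at least 8-fold lower, or 0.142%, 28 were also lower at 0 h. Together those beyond 8-fold made up 0.301%. Between 4-fold and 8-fold, 18 of 32 higher and 40 of 91 lower members were past 2-fold in the same direction at 0 h. Between 2-fold and 4-fold, the same held for 43 of 344 higher and 64 of 694 lower members, that is 12.5% and 9.22%. Counted from 4-fold upward, 68 members were higher, or 0.301%, and 123 lower, or 0.544%, together 0.845%.

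**Figure D2:**
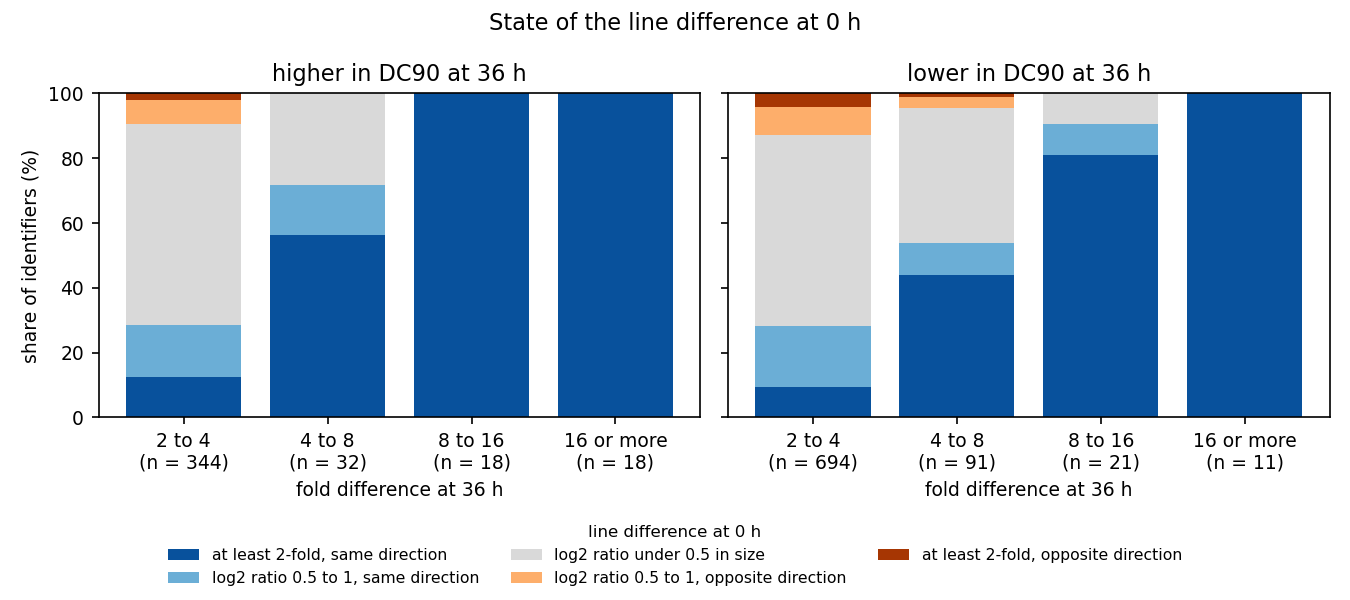
Bars give the share of members, in percent, by the state of their line difference at 0 h, for fold differences at 36 h of 2 to 4, 4 to 8, 8 to 16 and 16 or more; the left panel holds members higher and the right panel members lower in DC90. The dark share, at least 2-fold in the same direction at 0 h, is 12.5% of the higher and 9.22% of the lower members at 2 to 4-fold and reaches 100% in both panels at 16-fold or more.

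Counted from 2-fold upward, 97 of the 412 higher members, or 23.5%, were higher and 7 were lower in DC90 at 0 h. Of the 817 lower members, 132, or 16.2%, were lower and 29 were higher at 0 h. These shares stand beside 1.33% of all members higher and 1.49% lower at 0 h. Near equality at 0 h, meaning a log2 ratio under 0.5 in size, were 223 of the higher members, or 54.1%, and 451 of the lower members, or 55.2%. Of these, 44 of the 223 and 148 of the 451 were under 1 FPKM in both lines at 0 h, where no difference can pass 2-fold on this scale, so near equality there rests on low levels. The other 179 higher and 303 lower ones had at least 1 FPKM in either line at 0 h. Over all 22603 members, 89.9% lay within 1.5-fold of equality at 0 h, a slightly wider limit than that of near equality.

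The excess of members lower in DC90 was widest among moderately and strongly expressed transcripts and small at the lowest levels. At 1 to 2 FPKM in the higher library, 74 members were higher and 78 lower, or 3.46% and 3.64%, at a median of 15 reads. At 20 FPKM or more, 73 were higher and 303 lower of 9778 members, so that lower members were 4.15 times as many. These were 0.747% and 3.10%, at a median of 555 reads, so the share of higher members fell more than that of lower ones. Level and read depth rose together, and the part of depth was not tested. At 200 FPKM or more, 7 were higher and 41 lower of 1049, which is 0.667% and 3.91%. Before chilling, with levels taken at 0 h, 99 identifiers were higher and 90 lower at 20 FPKM or more, and 10 were higher and 10 lower at 200 FPKM or more. The surplus of lower members at 20 FPKM or more at 36 h held under both other scalings, at 58 higher and 371 lower with median-of-ratios factors and at 76 higher and 302 lower with equal FPKM sums. The near balance at 0 h did not hold in the same way, since equal sums gave 78 higher and 106 lower identifiers.

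**Figure D3:**
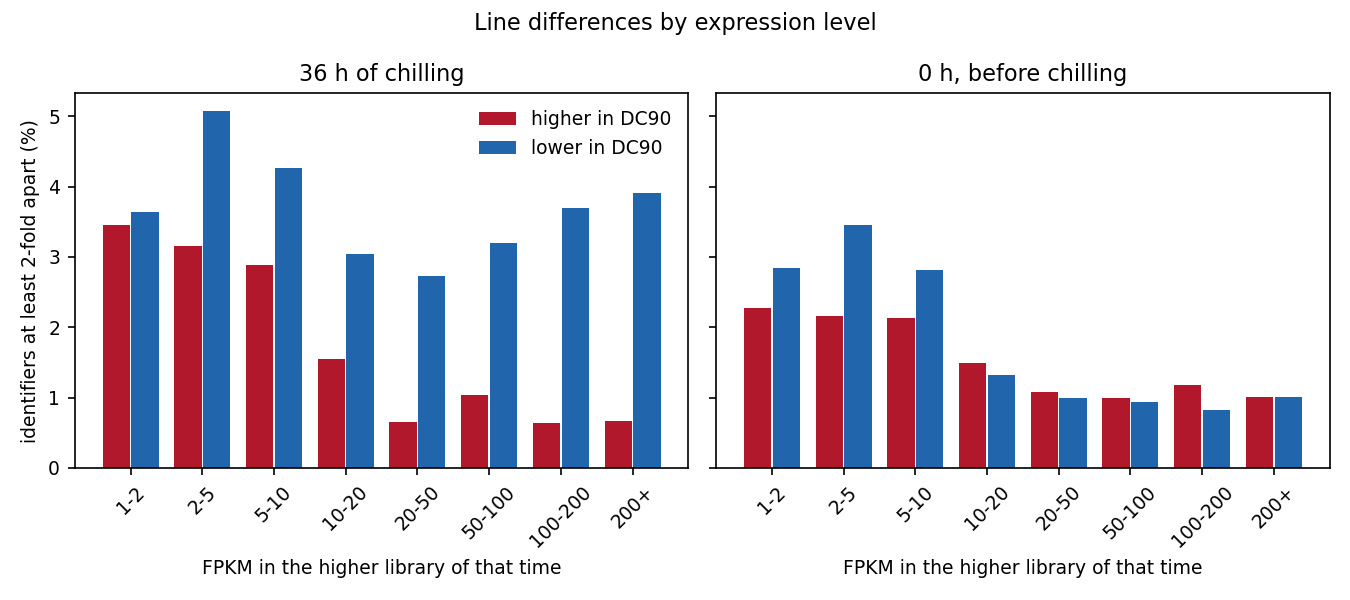
Bars give the share of identifiers, in percent, at least 2-fold higher (red) or lower (blue) in DC90, by FPKM in the higher library of that time; the left panel is 36 h and the right panel 0 h. At 36 h the blue bars stay between 2.74% and 5.07% from 2 FPKM upward while the red bars are at 0.644% to 1.04% from 20 FPKM upward, and at 0 h both lie between 0.817% and 1.18% from 20 FPKM upward.

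The members that differed at 36 h and were near equal at 0 h are set out here by their levels. The 451 members lower in DC90 had a median of 3.27 FPKM in DC90 and 10.2 in 9311 at 36 h, and of 2.13 in DC90 and 2.27 in 9311 at 0 h. Of these 4 medians, that of 9311 at 36 h stood apart. The median log2 ratio of 36 h over 0 h was 0.26 in DC90 and 1.62 in 9311 for these members, against 0.07 in DC90 and 0.02 in 9311 over all members. For the 208 of them with at least 100 reads, it was 0.83 in DC90 and 2.19 in 9311. The 223 members higher in DC90 had a median of 5.61 FPKM in DC90 and 1.66 in 9311 at 36 h, and of 6.23 in DC90 and 5.42 in 9311 at 0 h. Their median log2 ratio of 36 h over 0 h was -0.05 in DC90 and -1.197 in 9311, and for the 60 with at least 100 reads it was -0.34 in DC90 and -1.58 in 9311. By these medians, DC90 at 36 h was closer to its own 0 h level than 9311 was in both sets. These ratios share the 36 h libraries with the line comparison that chose the sets, so they are given side by side and not as a separate result. In addition, 148 of the 451 were under 1 FPKM in both lines at 0 h. For these, the level and size rules fixed a higher value in 9311 at 36 h than at 0 h. The same rules fixed a higher value in DC90 at 36 h for 44 of the 223.

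**Figure D4:**
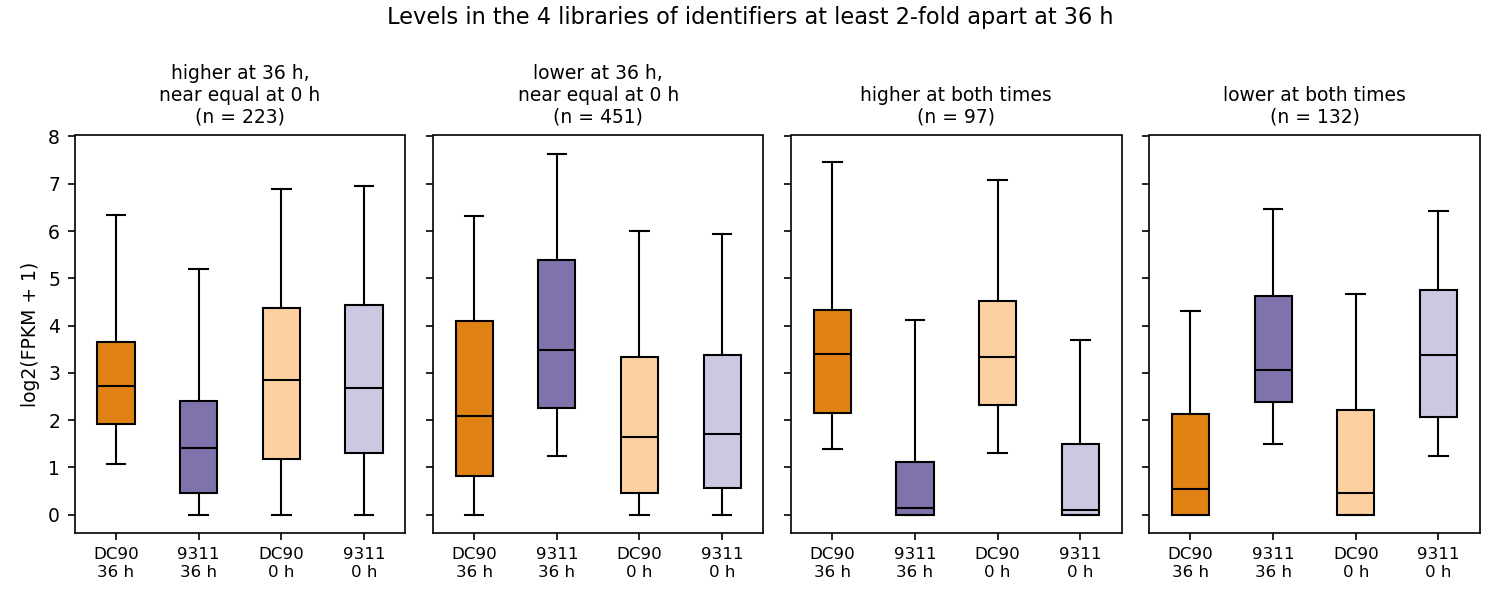
Boxes give log2(FPKM + 1) in DC90 at 36 h, 9311 at 36 h, DC90 at 0 h and 9311 at 0 h for 4 sets of members at least 2-fold apart at 36 h (line, median; box, quartiles; whiskers, 5th to 95th percentile). In the sets near equal at 0 h, the box of 9311 at 36 h stands lowest for the 223 higher members. It stands highest for the 451 lower members. These sets were chosen to differ at 36 h, which fixes the order of their boxes at 36 h. The sets at the right were chosen to differ in the same direction at both times, which fixes the order of their boxes within each time.

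At 10 FPKM or more in the higher library at 36 h, 66 higher and 230 lower members were near equal at 0 h, and the largest differences among them follow. BGIOSGA030725 had 1.996 FPKM in DC90 and 30.3 in 9311 at 36 h, from 23 and 360 reads, and 1.41 in DC90 and 1.56 in 9311 at 0 h. It was 15.2-fold lower in DC90 at 36 h, with a counting interval of 9.97 to 24.3. Only 9311 at 36 h was high for this identifier, at 19.5 times its 0 h level (12.4 to 32.3), against 1.41 times in DC90 (0.73 to 2.78). BGIOSGA027026, with a recovered length of 180 bases, had 16.8 FPKM in DC90 and 121 in 9311 at 36 h, and 0.949 in DC90 and 0.471 in 9311 at 0 h. It was 7.19-fold lower in DC90 (4.96 to 10.8). Both lines were high at 36 h for it. Its 0 h levels rest on 2 reads in DC90 and 1 in 9311, and the interval of the ratio at 0 h, 0.105 to 119, does not show equality there.

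BGIOSGA026390 had 12.5 FPKM in DC90 and 1.94 in 9311 at 36 h, and 55.9 in DC90 and 77.7 in 9311 at 0 h. It was 6.44-fold higher in DC90 at 36 h (3.997 to 10.9). Both lines were low at 36 h for it, at 4.47-fold below the 0 h level in DC90 (3.69 to 5.47) and 39.999-fold below it in 9311 (25.7 to 65.8). BGIOSGA021154 had 43.8 FPKM in DC90 and 11.02 in 9311 at 36 h, and 51.5 in DC90 and 39.3 in 9311 at 0 h. It was 3.97-fold higher in DC90 (2.89 to 5.56), and 9311 at 36 h was the library that stood low.

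The members that differed at both times were chosen for a difference past 2-fold in the same direction at 36 h and at 0 h, so the likeness of both pairs is set by that choice, and their levels are given as a description. The 97 higher in DC90 had a median of 9.62 FPKM in DC90 and 0.0956 in 9311 at 36 h, and of 9.16 in DC90 and 0.0787 in 9311 at 0 h. The 132 lower in DC90 had a median of 0.459 FPKM in DC90 and 7.35 in 9311 at 36 h, and of 0.375 in DC90 and 9.32 in 9311 at 0 h. Their median sizes at 36 h, log2 ratios of 2.28 and -2.06, were larger than the 1.179 and -1.23 of the higher and lower members near equal at 0 h. Single members moved both ways with time. For the higher members, the quartiles of the log2 ratio of 36 h over 0 h were -0.61 and 0.48 in DC90 and -0.13 and 0.05 in 9311. For the lower members, they were -0.21 and 0.25 in DC90 and -0.92 and 0.86 in 9311. Over all members, they were -0.53 and 0.67 in DC90 and -0.63 and 0.68 in 9311. In the line where each set was low, the medians were under 1 FPKM, where adding 1 to each FPKM shrinks the ratio. The narrow quartiles of 9311 in the higher set and of DC90 in the lower set therefore show no lack of response.

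Among those at 10 FPKM or more in the higher library were 45 higher and 54 lower members. BGIOSGA040274 had 993 FPKM in DC90 and 1.54, from 7 reads, in 9311 at 36 h. At 0 h it had 1114 in DC90 and 0.406, from 2 reads, in 9311. The ratio of BGIOSGA040274 at 36 h was 645 with an interval of 313 to 1605. BGIOSGA013100 had 175 FPKM in DC90 and 0.127, from 1 read, in 9311 at 36 h, and 165 in DC90 and 0.118, from 1 read, in 9311 at 0 h. Its ratio at 36 h was 1372 with an interval of 246 to 54247. On the other side, BGIOSGA037365 had 0.401 FPKM, from 2 reads, in DC90 and 189 in 9311 at 36 h, and 0.181, from 1 read, in DC90 and 149 in 9311 at 0 h. It was 469.8-fold lower in DC90 at 36 h, with an interval of 129.7 to 3884. BGIOSGA011910 was listed at 0 in DC90 and had 43.0 FPKM, from 318 reads, in 9311 at 36 h; it was again listed at 0 in DC90 and had 29.4 in 9311 at 0 h. Set at a floor of 3 reads per library, BGIOSGA011910 was 102.88-fold lower in DC90 at 36 h and 77.7-fold lower at 0 h. The lower limits of its counting intervals were smaller, at 83.18-fold at 36 h and 62.7-fold at 0 h.

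Few of the 22603 members were seen in 1 line alone. Listed at 0 at 36 h were 104 in DC90 and 92 in 9311. With at least 5 FPKM in the other line at 36 h, 25 members were listed at 0 in DC90 and 27 were listed at 0 in 9311. At least 20 reads stood behind 19 of the 25 and 22 of the 27. In the 3 identifier blocks described below lay 16 of the 25 and 14 of the 27. These blocks held 1120 of all members and were set by their density of differences at both times. Those seen in DC90 alone had a median of 11.5 FPKM there, and those seen in 9311 alone one of 7.82 FPKM there. Of the 25 listed at 0 in DC90, 21 were also listed at 0 in DC90 at 0 h. Of the 27 listed at 0 in 9311, 24 were also listed at 0 in 9311 at 0 h. The share of all members listed at 0 at 0 h is not given here, so this overlap has no background. The recovered lengths of these 25 and 27 members were short. Their median was 369 bases for those seen in DC90 alone and 351 for those seen in 9311 alone, against 1032 over all members. The recovered length is the smallest that fits the reads of all libraries, so it can fall short of the true one. This is more likely where fewer libraries have reads, as here.

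Short transcripts stood apart more often than long ones. Lengths recovered from the FPKM steps were multiples of 3 in 98.8% of BGIOSGA identifiers and are called coding lengths. Of members up to 300 bases, 5.59% were higher and 11.05% lower in DC90, and of those over 2500 bases 0.212% were higher and 1.32% lower. Short transcripts also had fewer reads, at a median of 34 up to 300 bases and 413.5 above 2500. With at least 100 reads the order by length remained, at 1.77% higher and 6.21% lower up to 300 bases and 0.128% higher and 1.28% lower above 2500. Lower members outnumbered higher ones in each of the 6 length classes, with and without the condition on reads.

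Line differences at 36 h were spread over nearly the whole range of identifier numbers, with a few dense parts. Of 39 bins of 1000 numbers that held at least 100 members, 38 had more members lower than higher in DC90, and 1 had as many of each. The share at least 2-fold apart had a median of 4.52% over these bins. It passed 10% in 4 of them, at 12.2% for numbers 10000 to 10999, 14.0% for 36000 to 36999, 14.8% for 37000 to 37999 and 12.4% for 38000 to 38999. The same 4 bins had 9.38%, 9.84%, 11.2% and 10.5% at 0 h. The numbers are those in the identifiers, and chromosome positions were not used here.

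**Figure D5:**
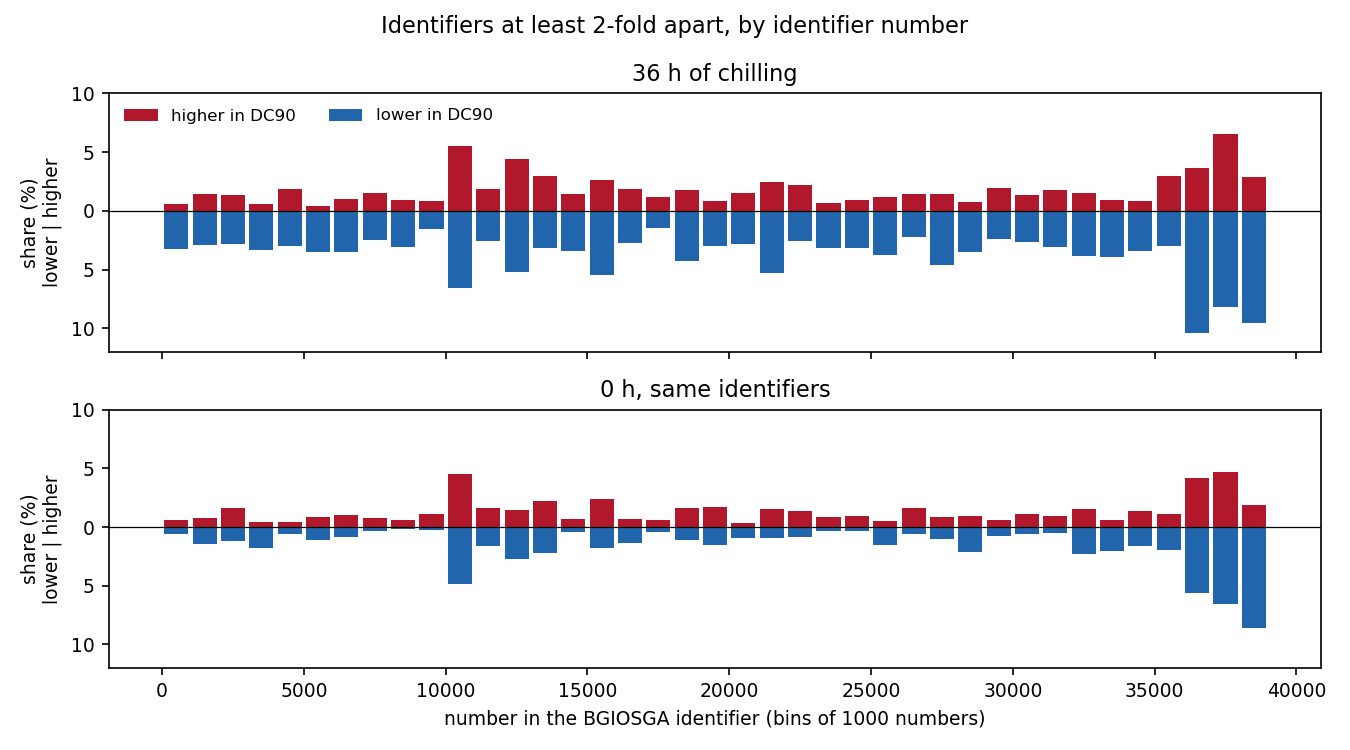
Bars give the share of members, in percent, at least 2-fold higher in DC90 (red, upward) or lower (blue, downward) in bins of 1000 identifier numbers with at least 100 members; the upper panel is 36 h and the lower panel the same members at 0 h. The bin of 10000 to 10999 and those from 36000 to 38999 stand out at both times, and at 36 h the blue bars run along the whole range.

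In the 3 identifier blocks 10224 to 10354, 12710 to 13206 and 36041 to 37534, which were set by their density of differences at both times, 79 of 1120 members were higher and 121 lower at 36 h, and 48 of the 79 and 67 of the 121 went the same way at 0 h. Outside these blocks, 333 of 21483 members were higher and 696 lower, of which 49 and 65 went the same way at 0 h. Lower members made up 67.6% of those past 2-fold outside the blocks.

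Members lower in DC90 also tended to have a lower neighbour in number. The next member in number was lower as well for 107 of the 817 lower members, or 13.1%, against 3.61% of all members. It was higher for 19 of them, or 2.33%. For the 412 higher members the next was higher in 22 cases, or 5.34%, against 1.82% of all. It was lower in 25, or 6.07%, against 3.61% of all. Both shares were above those of all members. Outside the blocks, 10.9% of lower members had a lower next member, against 3.24% of all there. The next member of a higher one was higher in 11 cases, or 3.30%, against 1.55% of all there. It was lower in 11, or 3.30%, against 3.24% of all there. Identifiers with near-identical copies could share reads, which was not tested.

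The longest run of neighbours lower in DC90 outside the blocks held 5 members, from BGIOSGA025078 to BGIOSGA025088, and was singled out after its values were seen. All 5 had coding lengths of 450 to 519 bases. The most abundant, BGIOSGA025078, had 378 FPKM in DC90 and 1202 in 9311 at 36 h, and 269 in DC90 and 386 in 9311 at 0 h. BGIOSGA025080 had 4.19 FPKM in DC90 and 27.9 in 9311 at 36 h, and 2.14 in DC90 and 6.20 in 9311 at 0 h. BGIOSGA025088 had 125 FPKM in DC90 and 301 in 9311 at 36 h, and 45.5 in DC90 and 103 in 9311 at 0 h. For these 3, DC90 was the lower line at both times, and each line was higher at 36 h than at 0 h. The log2 ratio of DC90 over 9311 ran from -2.48 to -1.26 in the 5 members at 36 h and from -1.199 to -0.52 at 0 h. The other 2 members lay between 0.911 and 8.18 FPKM in DC90 and between 9.37 and 45.9 in 9311 at 36 h. The counting of reads between such neighbours is not described in the sources used here, so these values may not be independent.

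The members at least 2-fold apart held a small part of all transcripts. The 817 lower members took 1.29% of the members' summed FPKM in DC90 and 3.44% in 9311 at 36 h, and 1.17% in DC90 and 1.51% in 9311 at 0 h. The 412 higher members took 0.951% in DC90 and 0.281% in 9311 at 36 h, and 1.33% in DC90 and 1.06% in 9311 at 0 h. In both sets, which were chosen by the 36 h values, the share in 9311 at 36 h was the one farthest from the other 3.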

How the data were processed

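RNA of whole seedlings was pooled from 3 replicates per line and time, 3 µg of pooled RNA went into each NEBNext Ultra library, per the labels' protocols, and sequencing was by Illumina HiSeq, per the design text. The authors deposited 1 table of FPKM values. The submitters' processing notes name HTSeq 0.6.1; the aligner, genome build and annotation were not given in the sources used here. Each column bears the title of its sample.

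Whole reads were recovered from the FPKM steps: whole-number library totals that fitted all libraries, then the smallest length up to 30000 that made the reads of all 4 libraries whole within 1e-07. This gave a length for 34043 of the 34043 identifiers above 0. A factor common to length and reads is lost this way, so reads and lengths are minimum values. The reads summed to 97.6% to 97.7% of the totals. Reads served for depth and for exact Clopper-Pearson counting intervals at 95%; without replicates, no count model was fitted. PCR reads are not independent molecules, so intervals cover counting error only.

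Log2 ratios used a pseudocount of 1, an FPKM of at least 1 in either library of the comparison, and a size of at least 2-fold. Named members were those with at least 10 FPKM in the higher library and the 2 highest and 2 lowest ratios at 36 h, once among members past 2-fold in the same direction at 0 h and once among members with a log2 ratio under 0.5 in size at 0 h. None of the identifiers was found in the reference gene table (assembly ASM3414082v1), so no gene lists were used. Identifier blocks were windows of 50 identifiers with at least 7 past 2-fold alike at both times, joined where under 1000 numbers apart. The members, rules and blocks were chosen with earlier results of these data known. The alternatives were 7 planned settings and 2 chosen after seeing the data (at least 100 reads, and leaving out the identifier blocks). Calls and read recovery were tested on simulated data. Python 3.11.15, pandas 2.3.3, NumPy 2.4.6 and SciPy 1.17.1 were used.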

Additional observations from a re-analysis of the deposited data

Results flagged for a closer look

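A few members were at least 2-fold apart in opposite directions at 36 h and at 0 h. Higher in DC90 at 36 h and lower at 0 h were 7 members, and lower at 36 h and higher at 0 h were 29. The 7 were 1.70% of the higher members, near the 1.49% of all members that were lower at 0 h. The 29 were 3.55% of the lower members, against 1.33% of all members that were higher at 0 h. The 29 had a median of 8.23 FPKM in DC90 and 26.1 in 9311 at 36 h, and of 15.8 in DC90 and 6.69 in 9311 at 0 h. At least 20 reads at both times stood behind 22 of the 29 and 3 of the 7. The difference between the times was not tested, because each line has 1 library per time. Of the named members, BGIOSGA026390 had a log2 ratio of 2.20 at 36 h and -0.47 at 0 h, and BGIOSGA027026 one of -2.77 at 36 h and 0.41 at 0 h, the last on 2 reads in DC90 and 1 in 9311; these differences were not tested either.

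Identifiers beginning with EPlOING are not members. At 36 h, 34 of the 308 with at least 1 FPKM and 20 reads were at least 2-fold apart, 18 higher and 16 lower in DC90, at a median recovered length of 79 bases. The share depended on depth: it was 11.0% here, 52.2% over the 2980 with at least 1 FPKM, whose median was 3 reads, and 2.63% over the 38 with at least 100 reads.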

How the results depend on the processing

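Lower members outnumbered higher ones under all 9 alternatives. The 62 values of the named members stayed past 2-fold in their direction. Settings that only left identifiers out could not change these values, and the named members were chosen for their large ratios. Higher members made up 33.5% of those past 2-fold, and 45.6% with a pseudocount of 0.1 and no minimum FPKM, 37.1% with a pseudocount of 0.5, 30.6% with at least 20 reads, 28.9% with at least 5 FPKM, 26.6% with median-of-ratios factors and 22.6% with at least 100 reads. The pseudocount of 0.1 without a minimum gave 2097 higher and 2503 lower members, an SD of 0.91, 1063 higher and 1154 lower ones near equal at 0 h, and 361 higher and 548 lower ones past 2-fold alike at 0 h. At least 5 FPKM gave 228 higher members, 124 of them near equal and 61 higher at 0 h. A pseudocount of 0.5 gave 340 higher members near equal at 0 h. From 4-fold upward, 68 were higher and 123 lower, with 9 and 40 near equal and 54 and 68 alike at 0 h. At least 100 reads gave 108 higher and 370 lower, with 60 and 208 near equal and 30 and 39 alike at 0 h. Outside the 3 blocks, 49 higher and 65 lower members were alike at 0 h. The cause of these moves was not tested. Of 54 counts, 30 stayed within 1.5 times the reported one. Depth limits the members under 20 reads, 132 higher and 183 lower. No paired analysis was possible because each group has 1 library.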

Other observations

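The 10 most abundant members of DC90 took 5.74% of its members' summed FPKM, those of 9311 took 6.04%, and 9 members were in both lists. The log2 ratios of DC90 over 9311 ran from -0.63 to 0.33 in the list of DC90 and from -0.63 to 0.31 in that of 9311. Of the 100 most abundant members of each line, 82 were in both lists, and of the 500 most abundant, 441. The ratios ran wider in these lists, from -0.91 to 8.61 over the 100 of DC90, from -1.66 to 0.51 over the 100 of 9311, from -1.66 to 8.61 over the 500 of DC90 and from -2.61 to 1.07 over the 500 of 9311, where 17 were at least 2-fold lower in DC90. The median log2 ratio was 0.06 over the 500 of DC90 and 0.01 over the 500 of 9311. Each list was ranked by 1 of the libraries compared, which favours members high in that line.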
